A study of Mus musculus with 6 samples.

Results

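The genes described here are Cck, which encodes the precursor of the neuropeptide cholecystokinin, and its receptor genes Cckbr and Cckar. They are 3 of the 22095 genes of a deposited read count table and were chosen by name, with the left and right read counts of these same libraries in view. Polyadenylated RNA was sequenced from olfactory bulbs of outbred ICR mice without a transgene named in the labels. A silica gel plug was put into the left naris at postnatal day 30, and the mice were perfused with PBS and the bulbs dissected 60 days later. Bulbs of the plugged (left) side of mice 1037 and 1039 were set against bulbs of the open (right) side of mice 1037, 1038 and 1039, each library being 1 bulb. All mice carried a plug, so the right bulbs are the open side of operated animals, and a side difference present without a plug cannot be told apart from one that follows it.

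Cholecystokinin is a gut hormone and one of the most widespread neuropeptides of the mammalian brain. Its precursor is cut by prohormone convertases in the secretory pathway, trimmed, sulfated on tyrosine and amidated, and the active peptide is released from dense-core vesicles. In the olfactory bulb Cck is known as a gene of tufted cells, glutamatergic output neurons that receive input from the sensory axons of the nose. The receptor encoded by Cckbr is the main cholecystokinin receptor of the brain, and the one encoded by Cckar is known from the pancreas, the gallbladder and a smaller set of neurons. Both are receptors coupled to G proteins of the Gq class, which activate phospholipase C beta.

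Cck lies on chromosome 9, 121489824 to 121495694, on the minus strand of GRCm38 (ENSMUSG00000032532). Cckbr lies on chromosome 7, 105425731 to 105470898, on the plus strand (ENSMUSG00000030898), and Cckar on chromosome 5, 53697776 to 53707705, on the minus strand (ENSMUSG00000029193). Their annotated spans overlap 0 other genes. The 250 bases before the annotated starts of Cck and Cckbr are shown because both genes had lower read counts on the plugged side. They are from RefSeq on GRCm38.p6, chr9:121495695-121495944 on the minus strand and chr7:105425481-105425730 on the plus strand, read 5′ to 3′, with CACGTG and CGTCA in capitals.
Cck: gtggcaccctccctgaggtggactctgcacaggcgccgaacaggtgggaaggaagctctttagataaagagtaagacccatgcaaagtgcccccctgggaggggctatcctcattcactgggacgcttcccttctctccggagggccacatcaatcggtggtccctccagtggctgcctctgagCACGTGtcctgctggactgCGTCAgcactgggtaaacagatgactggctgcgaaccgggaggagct
Cckbr: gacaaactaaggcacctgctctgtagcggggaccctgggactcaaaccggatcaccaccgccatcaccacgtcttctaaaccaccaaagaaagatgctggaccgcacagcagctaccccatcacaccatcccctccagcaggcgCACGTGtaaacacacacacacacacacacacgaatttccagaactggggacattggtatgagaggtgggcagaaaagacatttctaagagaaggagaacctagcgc

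CACGTG is an E-box and CGTCA is the core of the cyclic AMP response element. In the Cck window CACGTG began 66 bases and CGTCA 47 bases before the start, without overlap. In the Cckbr window CACGTG began 106 bases before the start, and neither CGTCA nor its reverse complement TGACG was present. Among 32851 windows of this length, 6.02% held CACGTG, 17.8% held CGTCA or TGACG on either strand, and 1.53% held both kinds. The full element TGACGTCA was in neither of the windows shown and in 1.55% of all. TGACTCA or its reverse complement (the AP-1 site) and GGGCGG or its reverse complement (the GC box) were also in neither, against 4.46% and 32.7% of all windows. These matches describe letters and not bound sites, and the motifs were chosen after the sequences had been seen.

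The 6 libraries held 14571453 to 15590938 counts. The library labelled left 1038 is shown apart because its levels go against its label. It held Dlx1, a transcription factor of bulb interneurons, at 0.618 CPM (the count scaled to the total of the library) against 304 to 358 CPM in the other 5 libraries. It held Cbln3, Gabra6 and Fat2, genes of cerebellar granule cells, at 1217, 896 and 1054 CPM, against at most 1.26 CPM in the others. Across genes its log2 CPM correlated with the other libraries at 0.946 to 0.949, against 0.993 to 0.997 among those 5.

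Cck was present in the plugged-side bulbs at 50.4% of its mean level in the open-side bulbs, and the groups did not overlap. It had 54.8 CPM in left 1037 and 43.4 CPM in left 1039, against 107.2, 96.5 and 88.6 CPM in right 1037, 1038 and 1039. These values rest on 846 and 654 reads on the left and on 1672, 1457 and 1298 reads on the right. The mean was 49.1 ± 8.06 CPM in the left bulbs (SD, n = 2) and 97.5 ± 9.36 CPM in the right bulbs (SD, n = 3). Both left libraries lay below every right library, and the left bulbs differed more from each other than counting error gives (coefficient of variation 16.4%, against 3.65% from counting alone). In the fit across all genes the log2 fold change, left over right, was -1.07 (SE 0.11). Within mouse 1037 the log2 ratio of CPM was -0.97 and within mouse 1039 it was -1.03. In bulk tissue, fewer cells of a type and less RNA per cell cannot be told apart.

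Cckbr showed a side difference of similar size with less spread. It had 28.4 CPM in left 1037 and 30.003 CPM in left 1039, against 53.8, 54.6 and 55.9 CPM in right 1037, 1038 and 1039. The counts behind these values were 438 and 452 reads on the left and 839, 824 and 819 reads on the right. The mean was 29.2 ± 1.15 CPM in the left bulbs (SD, n = 2) and 54.8 ± 1.06 CPM in the right bulbs (SD, n = 3). The coefficient of variation was 3.94% on the left and 1.93% on the right, where counting alone gives 4.74% and 3.48%, so replicates of a side differed by no more than counting error. The log2 fold change was -0.99 (SE 0.08), with -0.92 within mouse 1037 and -0.90 within mouse 1039.

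Cckar had 0 reads in each of the 6 libraries. A count of 0 allows up to 3 reads, which corresponds to 0.192 to 0.206 CPM in a single library and to 0.0332 CPM over all 90406771 counts. Cckar was therefore not detectable at this depth on either side, and no fold change can be given. Such limits and the intervals given here cover counting error only.

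**Figure D1:**
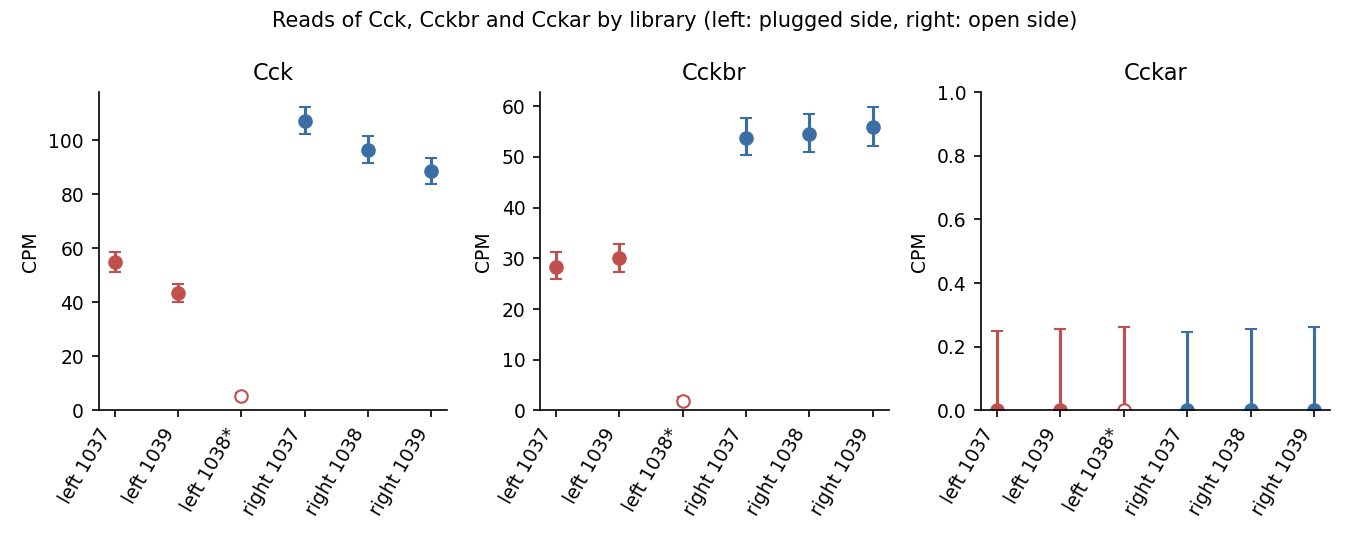
Reads of Cck, Cckbr and Cckar in CPM (y axis, from 0) in each library (x axis), with left (plugged side) libraries in red, right (open side) libraries in blue, and bars giving 95% Wilson intervals of counting error. Left 1037 and left 1039 sit at 54.8 and 43.4 CPM for Cck and at 28.4 and 30.003 CPM for Cckbr, below all right libraries, while Cckar is at 0 throughout; the open symbol with an asterisk is the library labelled left 1038.

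The genes were chosen with the results of this comparison known, so the side differences of Cck and Cckbr are given as a description, with no p. Of 14412 genes in the edgeR fit (quasi-likelihood test), 6.46% were called lower and 3.16% higher on the left at an adjusted p under 0.05. The split was 931 lower and 456 higher, and with scaling by total library size only it was 589 lower and 975 higher. A log2 fold change below that of Cck was seen in 147 genes and below that of Cckbr in 180 genes. In 13.2% of the genes tested both left libraries lay below all right libraries in CPM, as for Cck and Cckbr, and in 33.2% both lay above.

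In the library labelled left 1038 both genes were far lower than in any other library. Cck had 77 reads, or 5.28 CPM (4.23 to 6.60 CPM, 95% Wilson interval), and Cckbr had 26 reads, or 1.78 CPM (1.22 to 2.61 CPM). With this library among the left bulbs, the log2 fold change was -1.57 (SE 0.75) for Cck and -1.52 (SE 0.87) for Cckbr, so the SE rose with it.

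The ratio of receptor reads to peptide reads overlapped between the groups. There were 0.518 and 0.691 Cckbr reads per Cck read in left 1037 and left 1039, against 0.502, 0.566 and 0.631 in right 1037, 1038 and 1039. Per kb of annotated exon (1305 bases for Cck and 2862 for Cckbr), the level of Cck was 4.24 and 3.17 times that of Cckbr in the left bulbs and 4.37, 3.88 and 3.48 times in the right bulbs.

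On the scale of CPM per kb of exon, Cck ranked 4 in the left bulbs and 4 in the right bulbs among 21 neuropeptide precursors, the other 20 being a list chosen for this comparison. It had 37.6 ± 6.18 CPM per kb in the left bulbs (SD, n = 2) and 74.7 ± 7.17 in the right bulbs (SD, n = 3). The levels of Npy (neuropeptide Y) and Penk (proenkephalin) were higher, with 177 ± 22.6 and 118 ± 6.80 CPM per kb in the right bulbs. Trh, the precursor of thyrotropin-releasing hormone, had 34.4 ± 5.37 CPM per kb in the left bulbs and 80.0 ± 16.0 in the right bulbs, and its range overlapped that of Cck on both sides. Nmb (neuromedin B) had 43.2 ± 5.11 CPM per kb in the left bulbs, where it overlapped Cck, and 44.2 ± 2.89 in the right bulbs, where it lay below every value of Cck.

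Cckbr ranked 5 in the left bulbs and 4 in the right bulbs among 29 neuropeptide receptors measured, with 10.2 ± 0.402 CPM per kb in the left bulbs (SD, n = 2) and 19.1 ± 0.369 in the right bulbs (SD, n = 3). Adcyap1r1, the PACAP receptor, and Ntsr2, a neurotensin receptor, had the highest levels, 57.6 ± 3.99 and 33.2 ± 3.03 CPM per kb in the right bulbs. Crhr1, a receptor of corticotropin-releasing hormone, had 16.5 ± 0.697 CPM per kb in the left bulbs and 21.2 ± 1.56 in the right bulbs. In the right bulbs the values of Cckbr lay within the range of Vipr2, a receptor of VIP and PACAP, and reached that of Crhr1. In the left bulbs Cckbr lay below all values of both.

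**Figure D2:**
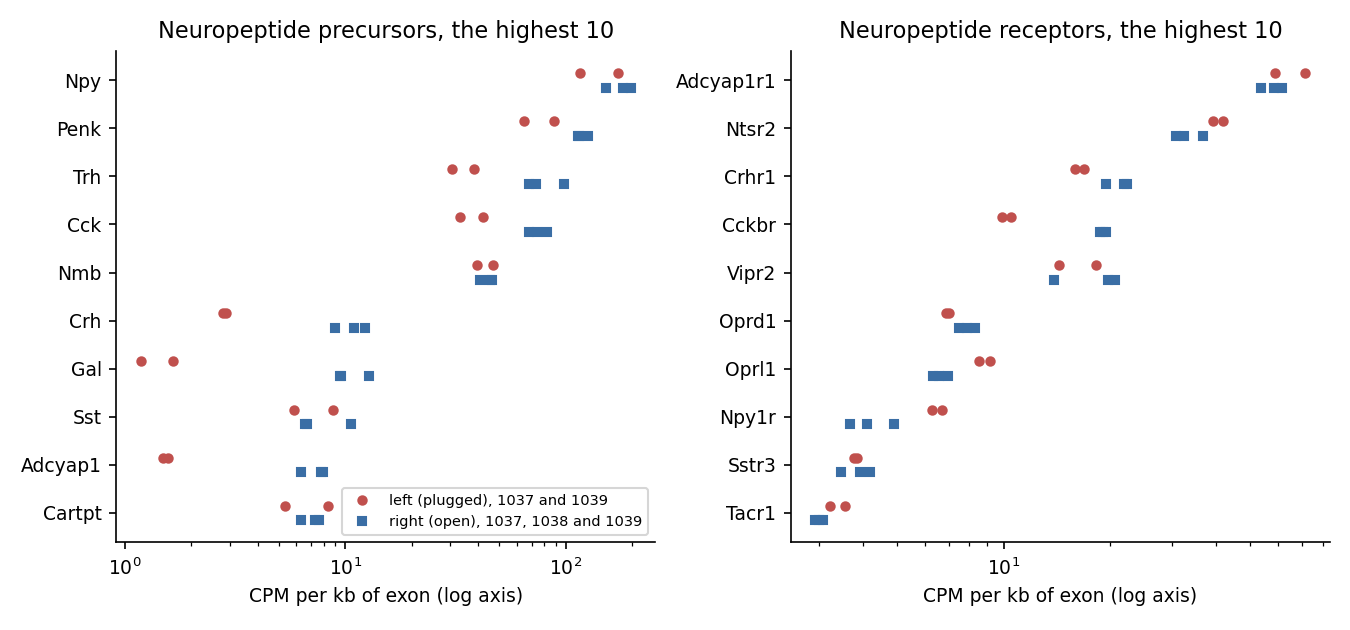
Level in CPM per kb of exon (x axis, log scale) of the 10 neuropeptide precursors (first panel) and the 10 neuropeptide receptors (second panel) with the highest mean in the right bulbs, with left (plugged) libraries as red circles and right (open) libraries as blue squares. Cck and Cckbr each hold rank 4 in the right bulbs, with all left values below all right values; Nmb and Vipr2 show overlapping sides.

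Of the other neuropeptide precursors, 17 of 20 had enough counts to be tested, 5 fell (29.4%, against 6.46% of all genes tested) and 0 rose on the left (median log2 fold change -0.51, against 0.005 over all genes tested). Adcyap1, the precursor of PACAP, fell by 2.34 on the log2 scale (SE 0.15, edgeR adjusted p = 8.11e-05), Crh by 2.01 (SE 0.19) and Gal, the precursor of galanin, by 2.98 (SE 0.27). Trh fell by 1.30 (SE 0.15, adjusted p = 0.00142) and Penk fell by 0.70 (SE 0.11, adjusted p = 0.00535). Npy had -0.38 (adjusted p = 0.159), and it was called lower without left 1037 (-0.69, adjusted p = 0.00826). When DESeq2 was blocked on the mouse, 3 of the 17 were called, Penk was not (adjusted p = 0.103) and Gal had no adjusted p.

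Of the other receptors, 22 of 28 were tested, 2 fell and 3 rose (median log2 fold change 0.09, and -0.17 without left 1039). These are 9.09% lower and 13.6% higher, against 6.46% and 3.16% of all genes tested, so the share that fell was near that of all genes. Crhr1 fell by 0.45 (SE 0.09, adjusted p = 0.0111) and Sstr2, a somatostatin receptor, fell by 1.08 (SE 0.27, adjusted p = 0.0362). Ntsr1, a neurotensin receptor, rose by 0.95 (SE 0.19, adjusted p = 0.0141), Npy1r, a neuropeptide Y receptor, rose by 0.53 (SE 0.13, adjusted p = 0.0356), and Oprl1, the nociceptin receptor, rose by 0.34. Adcyap1r1 and Ntsr2 had 0.10 and 0.20 (adjusted p = 0.551 and 0.144). Leaving out any 1 of the 5 libraries ended the calls of Sstr2 and Oprl1 (largest adjusted p = 0.187 and 0.182), and DESeq2 without a block called 1 lower and 2 higher. Npy1r stayed called only when right 1037 was the library left out (adjusted p up to 0.136 otherwise). Blocked on the mouse, edgeR called Ntsr2 (adjusted p = 0.0206) and not Oprl1 (adjusted p = 0.0567), and DESeq2 called 0 of the 22, with adjusted p = 0.226 for Crhr1.

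Among genes that make the active peptide, the convertases Pcsk1 and Pcsk2 fell. Pcsk1 had 25.3 and 23.0 CPM in left 1037 and left 1039, against 71.3, 49.8 and 50.6 CPM in right 1037, 1038 and 1039. It fell by 1.33 on the log2 scale (SE 0.16, edgeR adjusted p = 0.00148), and its left values lay below all right values. There were 2.16 and 1.89 Cck reads per Pcsk1 read in left 1037 and left 1039, against 1.505, 1.94 and 1.75 in right 1037, 1038 and 1039, so the ranges of this ratio overlapped.

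The other convertase of neuropeptides, Pcsk2, fell by 0.39 (SE 0.10, adjusted p = 0.0406), with overlapping CPM values. Cpe, the carboxypeptidase that trims the cut peptide, had 0.06 (SE 0.08, adjusted p = 0.693). Pam, the amidating enzyme, had -0.26 (SE 0.08, adjusted p = 0.0698). Tpst1 and Tpst2, the tyrosine sulfotransferases, had -0.16 and -0.09 (adjusted p = 0.309 and 0.731). Of the granule proteins in the same list, Scg2, a secretogranin, fell by 1.51 (SE 0.11), Chgb, chromogranin B, fell by 0.59 (SE 0.06, adjusted p = 7.76e-04) and Scg5, the chaperone of Pcsk2, fell by 0.30 (SE 0.06, adjusted p = 0.0175).

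Of all 15 processing and granule genes, 6 fell (40.0%, against 6.46% of all genes tested), 0 rose and 9 did not pass (median log2 fold change -0.20, against 0.005 over all genes tested). With scaling by total library size only, 3 fell, and likewise 3 without left 1037 or without right 1038. Pcsk2 was no longer called when left 1037, right 1038 or right 1039 was left out (largest adjusted p = 0.198), nor Scg5 when left 1037, right 1037 or right 1038 was (largest adjusted p = 0.0781). Pam was called without left 1039 (adjusted p = 0.0213) and by edgeR blocked on the mouse (adjusted p = 0.0178). DESeq2 so blocked called 3, without Pcsk2 and Scg5 (adjusted p = 0.0979 and 0.0882).

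Genes downstream of the receptor showed no common direction. Of 19 genes of Gq signalling, 3 fell, 2 rose and 14 did not pass (median log2 fold change 0.01). These are 15.8% lower and 10.5% higher, against 6.46% and 3.16% of all genes tested. The G protein subunits Gnaq and Gna11 had -0.08 and 0.01 (edgeR adjusted p = 0.435 and 0.955), with CPM values that overlapped between the sides. Of the phospholipases C beta, Plcb1 fell by 0.39 (SE 0.10, adjusted p = 0.0343), while Plcb2, Plcb3 and Plcb4 had 0.23, 0.22 and 0.14 (adjusted p = 0.570, 0.158 and 0.166). Rgs4, which speeds the shut-off of Gq proteins, fell by 0.49 (SE 0.08, adjusted p = 0.00460), and Prkca, a protein kinase C, fell by 0.47 (SE 0.09, adjusted p = 0.0146). Arrb2, an arrestin, rose by 0.37 (SE 0.07, adjusted p = 0.0146).

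Plcb1 was no longer called when left 1037 (log2 fold change -0.24), right 1037 or right 1039 was left out (largest adjusted p = 0.153). Prkca and Arrb2 were no longer called without right 1038 (adjusted p = 0.0504 and 0.0559). Prkca had -0.30 without left 1037. Without right 1038, 2 genes of the list fell and 0 rose. DESeq2 blocked on the mouse called 2 lower and 0 higher, with adjusted p = 0.472 for Plcb1 and 0.395 for Arrb2. Scaled by total library size only, 2 fell and 3 rose, with Plcb4 at an adjusted p of 0.0400 and Plcb1 at 0.0689.

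**Figure D3:**
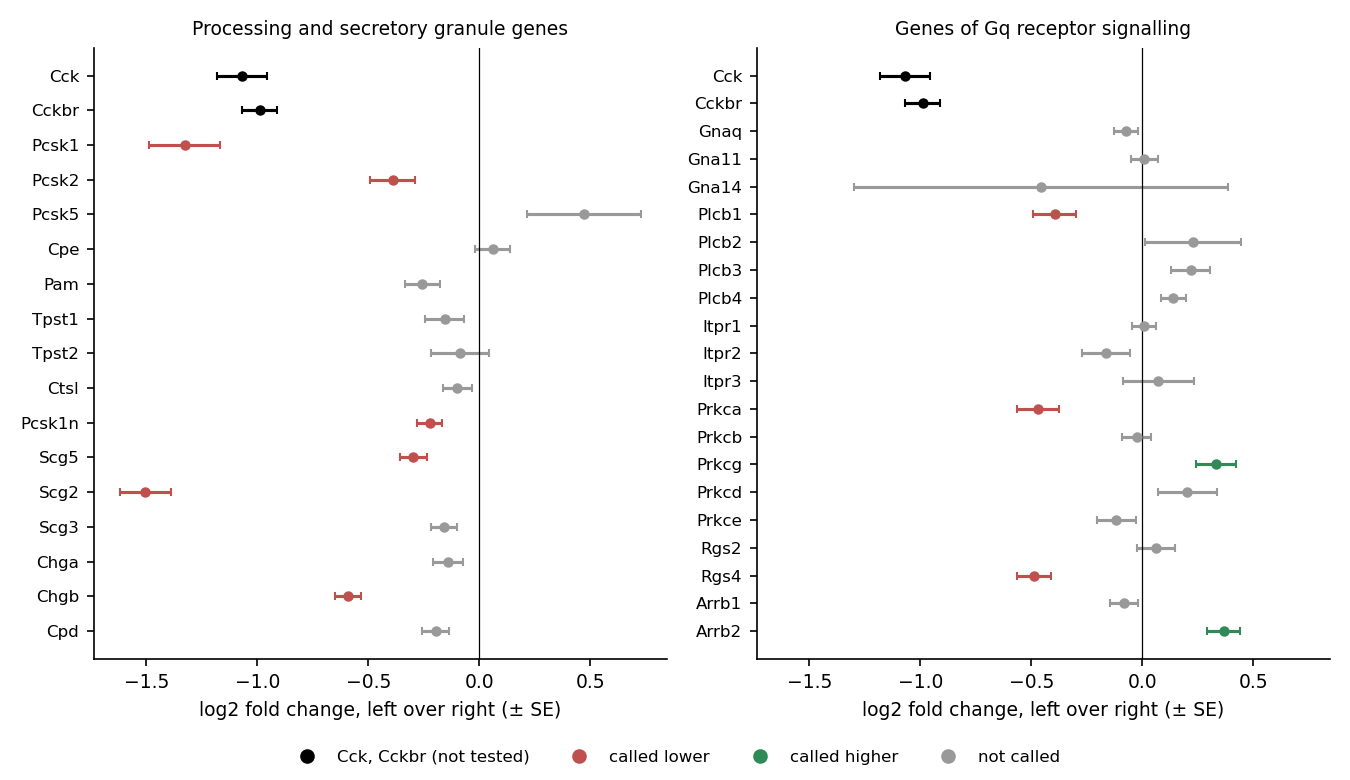
Log2 fold change, left over right, with its SE (x axis) for the 15 processing and granule genes (first panel) and the 19 Gq signalling genes (second panel), with Cck and Cckbr in black at the top of each and colours for the edgeR call at an adjusted p under 0.05. Pcsk1 and Scg2 lie at -1.33 and -1.51, beyond Cck at -1.07, while most signalling genes lie near 0.

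Mitral and tufted cells, which include the tufted cells known to express Cck, were followed through 9 markers. The list treats both cell types as 1 group, and tufted cells alone were not tested. Of the 9 markers 4 rose (44.4%, against 3.16% of all genes tested), 1 fell (11.1%, against 6.46%) and 4 did not pass (median log2 fold change 0.02). Tbx21, a transcription factor of these cells, rose by 0.65 (SE 0.11, edgeR adjusted p = 0.00580), Lbhd2 rose by 0.70 and Kcng1 rose by 1.36, and Slc17a6, a vesicular glutamate transporter, fell by 0.35 (adjusted p = 0.0275). Cdhr1, Slc17a7, Eomes and Tbr1 had -0.16, -0.03, -0.06 and 0.02 (adjusted p from 0.307 to 0.943). The markers summed to 2229 to 2635 CPM in the left bulbs and 2197 to 2254 CPM in the right bulbs. In the library labelled left 1038, Slc17a7, Reln and Eomes had 541, 435 and 66.4 CPM, and the other markers at most 1.03 CPM. Slc17a7, Reln and Eomes are therefore not particular to mitral and tufted cells. Without left 1037, 2 markers rose, Lbhd2 was not called (adjusted p = 0.0544) and Cdhr1 was called lower (-0.32, adjusted p = 0.0228). Leaving out any 1 of the 5 libraries ended the call of Slc17a6 (largest adjusted p = 0.143). DESeq2 blocked on the mouse called 2 markers higher and 0 lower.

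Ratios of Cck to each of these 9 markers restate the Cck counts on which the genes were chosen, and are given as a description. There were 0.0667 and 0.0655 Cck reads per Cdhr1 read in left 1037 and left 1039, against 0.139, 0.116 and 0.118 in right 1037, 1038 and 1039. Per Slc17a6 read, the marker called lower, there were 1.62 and 1.36 in left 1037 and left 1039, against 2.65, 2.51 and 2.21 in right 1037, 1038 and 1039. The left values lay below all right values for each of the 9 markers. The log2 difference was smallest per Slc17a6 read (-0.72), was -0.91 per Cdhr1 read and -1.05 per Slc17a7 read, and reached -2.47 per Kcng1 read, a marker called higher. For Cckbr the differences per read of these 4 genes were -0.64, -0.82, -0.96 and -2.39.

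**Figure D4:**
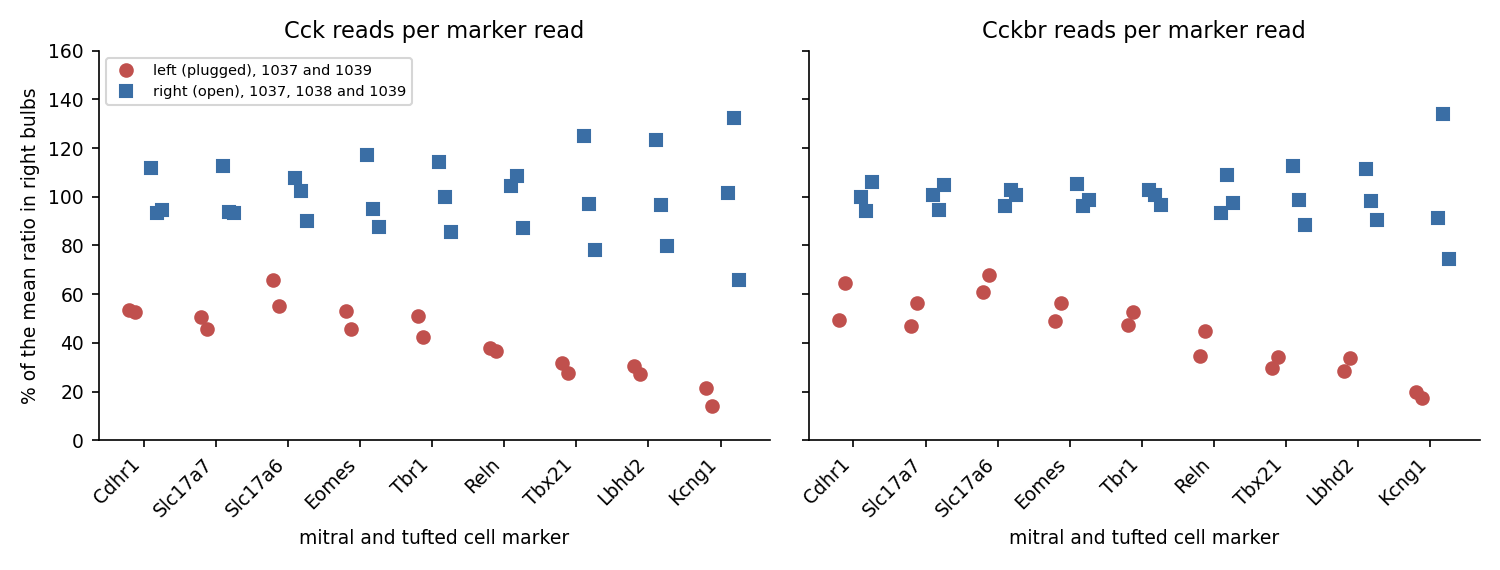
Cck reads (first panel) and Cckbr reads (second panel) per read of each of 9 mitral and tufted cell markers (x axis), as a percentage of the mean ratio in right bulbs (y axis, from 0), with left (plugged) libraries as red circles and right (open) libraries as blue squares. All left ratios lie below all right ratios for each marker, with the sides nearest for Slc17a6; the library labelled left 1038 is not drawn.

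Markers of other cells that a bulb dissection could hold were read beside this result. The anterior olfactory nucleus and cortex, behind the bulb, are known to hold many Cck neurons. Of 10 markers of their excitatory neurons 0 were called by edgeR, DESeq2 or limma-voom (1 at an unadjusted p under 0.05, and 1 called higher without left 1037), with sums of 286 to 290 CPM in the left bulbs and 268 to 274 CPM in the right bulbs. One of them, Neurod6, had 1.81 and 2.32 CPM in left 1037 and left 1039, against 3.08, 4.44 and 3.41 CPM in right 1037, 1038 and 1039 (log2 fold change -0.90, adjusted p = 0.0764). Its left values lay below all right values, as for Cck, without passing the test, and its part in the result was not tested. Of 5 genes that mark Cck interneurons of the cortex, 4 were tested and 0 were called by edgeR. Vip, also counted among the other neuropeptide precursors, had a log2 fold change of -0.51 (edgeR adjusted p = 0.0519). It had 13.7 and 19.1 CPM in left 1037 and left 1039, below all right values (21.0, 22.0 and 23.0 CPM in right 1037, 1038 and 1039). The 5 genes summed to 48.6 to 63.9 CPM in the left bulbs and 56.6 to 63.8 CPM in the right bulbs. By edgeR 1 had an unadjusted p under 0.05, and 1 was called lower without left 1039, by edgeR blocked on the mouse, by DESeq2 and by limma-voom.

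Of 7 genes of sensory neurons, whose axons enter the bulb, 5 fell (71.4%, against 6.46% of all genes tested), and 3 without right 1037. They summed to 126 to 188 CPM in the left bulbs and 372 to 457 CPM in the right bulbs. Omp had 35.1 and 8.43 CPM in left 1037 and left 1039, against 105 to 134 CPM in the right bulbs. Gnal had 79.0 and 72.7 CPM there, against 79.1 to 97.2 CPM. In the library labelled left 1038, Gnal, Gng13 and Adcy3 had 130, 150 and 50.1 CPM and Omp had 0.137 CPM, so these 3 are not particular to sensory axons. Of 10 bulb interneuron genes 4 fell (40.0%, against 6.46%) and 1 rose (10.0%, against 3.16%). The rise was lost without left 1039, right 1037 or right 1038. Gad1, Gad2, Slc32a1 and Th fell and Calb2 rose. The transcription factors Dlx1, Dlx2, Dlx5, Dlx6 and Meis2 were not called (log2 fold changes from -0.17 to 0.10). The 10 genes summed to 3496 to 3949 CPM in the left bulbs and 4381 to 4742 CPM in the right bulbs. Of 5 astrocyte genes 2 rose (40.0%, against 3.16% of all genes tested). These were Gfap and Aqp4, with log2 fold changes of 1.05 and 0.30. Aldh1l1, Slc1a3 and Slc1a2 were not called (-0.23, -0.02 and -0.09). The 5 genes summed to 2672 to 2728 CPM in the left bulbs and 2158 to 2385 CPM in the right bulbs. Of 6 microglia genes 1 rose (16.7%, against 3.16% of all genes tested). That call was lost without left 1037, right 1038 or right 1039. For all 6 genes both left values lay above all right values in CPM, as for 33.2% of the genes tested. They summed to 219.7 to 227.9 CPM in the left bulbs and 172.4 to 179.9 CPM in the right bulbs. Of 5 oligodendrocyte and 4 endothelial genes 0 were called by edgeR, DESeq2 or limma-voom, with 1 of each at an unadjusted p under 0.05. Every marker of these lists had reads in at least 1 of the 5 libraries. DESeq2 blocked on the mouse called 2 of the sensory genes, 4 lower and 0 higher of the interneuron genes, 1 astrocyte gene and 0 microglia genes. The part of these cell types in the levels of Cck and Cckbr was not tested.

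The genes whose levels over the 5 libraries were most like those of Cck were Nptx2, Syndig1l, mt-Nd6, Dio2 and Ccnd1. Likeness was the root mean square difference of log2(CPM + 0.5), each gene centred on its own mean, among 10485 genes of at least 10 CPM. It was 0.060, 0.061, 0.070, 0.077 and 0.078 for these genes, against a median of 0.54. Cckbr ranked 41 by this measure (0.172). Nptx2, a neuronal pentraxin found at excitatory synapses, had 28.1 and 20.6 CPM in left 1037 and left 1039, against 57.02, 51.9 and 46.9 CPM in right 1037, 1038 and 1039. Dio2, the deiodinase that activates thyroid hormone, had 64.9 and 53.5 CPM in the left bulbs, against 115, 108 and 95.2 CPM in the right bulbs. Ccnd1, cyclin D1, had 15.2 and 11.5 CPM in the left bulbs, against 30.1, 30.1 and 27.0 CPM in the right bulbs. Since these genes were picked for following Cck, their side difference is a description. Syndig1l stood at 50.0 CPM in the library labelled left 1038, above its level in the other libraries, where Cck was at 5.28 CPM.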

How the data were processed

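RNA sequencing of 6 bulbs from 3 mice was grouped by side from the labels. The deposited table gives whole-number counts of reads per gene and library without normalization, per the file headers. It also gives RPKM, which the authors computed on a gene length that lay within 1 base of the genomic span for 78.41% of genes. RPKM and length were not used. TopHat2, HTSeq 0.6.1p2, cutadapt 1.2.1, DESeq 1.18.0 and GRCm38 are named, without a role, per the submitters' processing notes. Strand setting and treatment of multiple hits are not given in the sources used here.

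CPM is a count over the library total. Levels per kb used the union of GENCODE exons (GRCm38). Of 22095 genes, 21852 matched a symbol. Genes were tested with edgeR 4.0.16 (quasi-likelihood, TMM, filterByExpr) in R 4.3.3, two-sided, with Benjamini-Hochberg adjustment over 14412 genes and calls at 0.05. SE is the absolute log2 fold change over the square root of F. DESeq2 1.42.0, limma-voom (limma 3.58.1), other scalings, filters and leave-outs were alternatives. The test was checked on simulated counts of independent libraries without a mouse effect, so that check does not cover the pairing of bulbs. Bulbs pair by animal, since each pair carries the number of its mouse in the labels; deviations of the 2 bulbs of a mouse from the group means correlated at 0.052 to 0.120 over 6 libraries, and at 0.283 over the 4 libraries of mice 1037 and 1039, the complete pairs of the comparison. The main fit had no block. The p-values measure the spread between these bulbs, and both bulbs of a mouse were treated as independent.

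The genes, lists and rules were chosen with earlier results of these data known. Named genes were the 3 genes, up to 4 called members with the smallest p in each list, listed pathway enzymes, the 5 genes most like Cck and the highest 3 peptides and receptors. Cdhr1, Slc17a7, Eomes, Tbr1, Neurod6, Dlx1, Nmb, Vipr2, Oprl1 and the cerebellar genes were named after their values were seen.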

Additional observations from a re-analysis of the deposited data

Results flagged for a closer look

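The library labelled left 1038 was left out of the comparison of sides, other than as the alternative with all 6 libraries, and genes of cerebellar granule cells stood there above their level in the right bulbs: Cbln3 had 1217 CPM, Gabra6 had 896 CPM and Fat2 had 1054 CPM, against at most 1.02 CPM in any right bulb.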

How the results depend on the processing

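The log2 fold change of Cck lay between -1.25 and -0.90 when 1 of the 5 libraries was left out, and that of Cckbr between -1.02 and -0.95. With all 6 libraries they were -1.57 and -1.52, and with scaling by total library size only that of Cckbr was -0.91, a shift larger than its replicate SD of 0.040. With the mouse as a replicate block edgeR gave -1.08 for Cck and -0.99 for Cckbr. The direction was negative under all 15 alternatives. Cckar, at 0 reads, gave no value under any. The 1387 calls became 1553 with the replicate block in edgeR, 432 with the block in DESeq2 (1373 without it) and 660 to 1096 when 1 library was left out, with 660 also without both bulbs of mouse 1038, which is the same set of libraries as without right 1038. With all 6 libraries edgeR called 0 of 14209 genes, with 1196 at an unadjusted p under 0.05 and a smallest adjusted p of 0.343, and Gng13, Crhr1 and Oprl1 took the opposite sign there (log2 fold changes of 0.74, 0.35 and -0.055). Of 907 values of 61 other named genes under alternatives, 796 kept their call or lack of a call, 101 lost and 7 gained a call. The other 3 were the changes of sign just named. Direction was compared only where a gene was called in either fit, so the 796 can hold changes of sign in uncalled genes. The 5 genes most like Cck were the same 5 with log2(CPM + 1). For 7 values DESeq2 gave no adjusted p. With 1 left library remaining, its spread is assumed to be that of the other group. Depth limits Cckar alone among the 3 genes.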
